A study of Drosophila melanogaster with 12 samples.

Results

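The interaction between knockdown of PTIP and knockdown of Pc and ph was measured in Kc167 cells, a Drosophila line of embryonic origin, over all 12 of the 12 arrays of the series. It is the effect of PTIP double-stranded RNA (dsRNA) in cells that also received Pc and ph dsRNA, minus its effect in cells that did not, on the log2 scale. A value of 0 means that the combined knockdown changed a transcript by the sum of the single log2 changes, which is additivity. A positive value means a level above that sum and a negative value a level below it. The 4 groups have 3 arrays each: Kc167 cells alone (control), cells with PTIP dsRNA (PTIP cells), cells with Pc and ph dsRNA (Pc/ph cells) and cells with dsRNA against all of these genes (combined cells). Per the labels, wells of 1000000 cells received 15 µg of dsRNA, medium with 5% serum followed 1 hour later, and culture lasted 6 days. They name no dsRNA for the control, do not say whether 15 µg is per gene or in total, and give no animal age or genotype. In every contrast that uses the control, the interaction included, an effect of any dsRNA and loss of the targets cannot be told apart. Nothing in the labels says that the replicates were separate cultures. The p-values below thus rest on the spread among these arrays, which may be technical.

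Polycomb repressive complex 1, to which both Pc and ph belong, keeps developmental regulator genes silent. PTIP is a BRCT-domain protein of a complex that methylates histone H3 at lysine 4, a mark of active and poised genes. Genes silenced by Polycomb proteins include many that encode transcription factors of body patterning, and their release is the usual sign of Polycomb loss. The series asks how PTIP bears on that repression, and the interaction is the comparison that puts this question to each transcript.

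Arrays of replicate 1 stood apart in every group, with medians of 5.62 to 5.77 and upper quartiles of 8.65 to 8.95 on the log2 signal scale, against 5.83 to 5.88 and 9.62 to 9.74 for the other 8. The replicate number was therefore fitted as a block. Probe sets of 6 Y-linked genes, which serve as a background reference in this female line, read 4.05 to 5.57 over all arrays. The hemocyte genes Hml, srp and He were well above that range in control cells, with group means of 12.9, 11.98 and 11.5. The crystal cell genes lz (4.70) and PPO1 (5.32) lay within it. Of 46 measured hemocyte and matrix genes, 8 lay in it on every array, as did 3 of 11 neuron and 0 of 16 epithelial markers. A level above it is thus no mark of hemocytes alone.

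Pc, the chromodomain subunit and a target of the dsRNA, read 8.38, 9.46 and 9.47 in replicates 1, 2 and 3 of the control and 7.72, 9.77 and 9.63 in PTIP cells. It read 6.18, 6.96 and 7.18 in Pc/ph cells and 7.24, 8.86 and 8.98 in combined cells. The Pc/ph arrays were the lowest of each replicate number, at 21.8, 17.8 and 20.3% of the same-numbered control, and the combined arrays stood at 45.5, 65.9 and 70.9%. Pc was thus less depleted in combined cells than in Pc/ph cells in every replicate. The difference between these groups was 1.59 ± 0.20 (SE, n = 3; limma adjusted p = 0.00208), and it was not called without the block (adjusted p = 0.995) or without replicate 2 (0.0776) or replicate 3 (0.138). The interaction of Pc itself was 1.65 ± 0.28 (limma adjusted p = 0.0657), with 1.72, 1.58 and 1.65 in the 3 replicates. In every contrast below that involves the combined cells, added PTIP dsRNA and a smaller loss of Pc cannot be told apart.

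Ptip, the gene that encodes PTIP, read 8.16, 8.52 and 8.26 in control cells and 7.44, 8.34 and 7.82 in PTIP cells. Pc/ph cells gave 7.97, 8.01 and 8.29 and combined cells 7.15, 8.06 and 8.41. The groups overlapped, and in replicate 3 the combined array lay above its control. PTIP dsRNA lowered Ptip in neither background by the test, with differences of -0.45 in control cells (limma adjusted p = 0.296) and -0.22 in Pc/ph cells (0.749). The Ptip interaction was 0.23 ± 0.30 and was not called by limma (adjusted p = 0.99984). The ph genes ph-p and ph-d, the other targets, had no probe set annotated to either symbol alone. Their levels could thus not be checked gene by gene here.

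**Figure D1:**
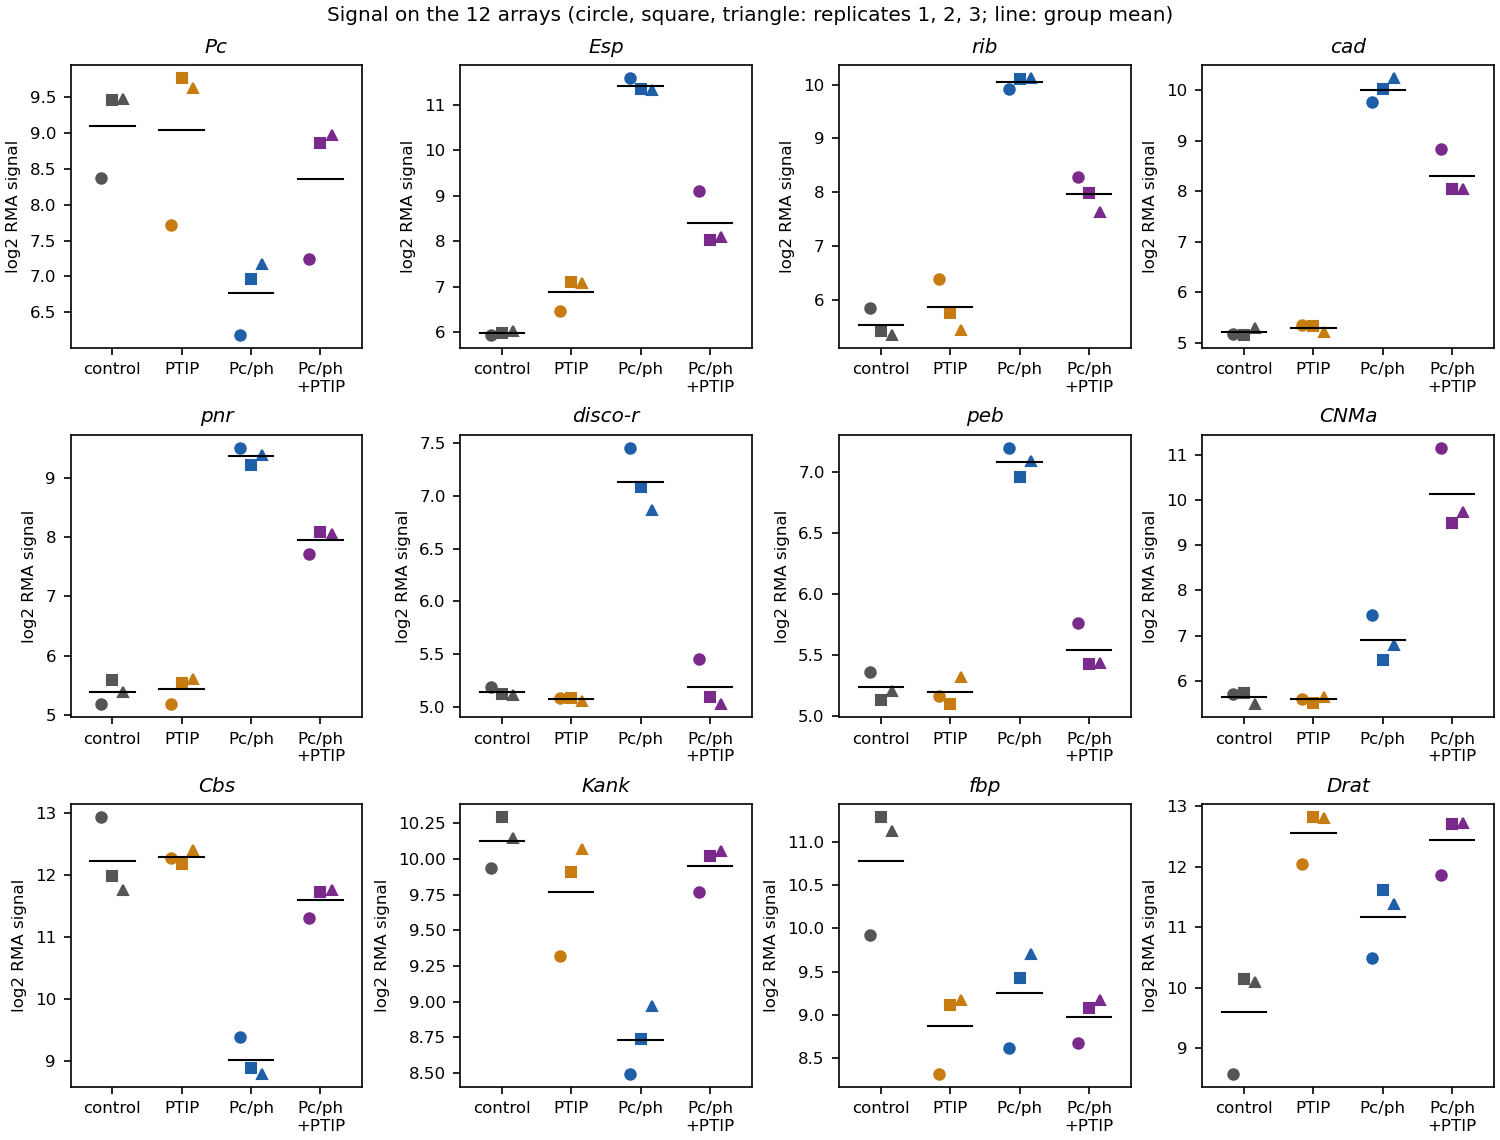
Log2 RMA signal (y axis, a separate range in each panel) of 12 genes in the 4 groups (x axis), with 1 symbol per array (circle, square and triangle for replicates 1, 2 and 3) and a line at the group mean. Pc is lowest in Pc/ph cells and lies between these and the control in combined cells, Esp, rib, cad, pnr, disco-r and peb are highest in Pc/ph cells, and CNMa is highest in combined cells.

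Departure from additivity was called for 35 of 18769 probe sets (0.186%) by limma at an adjusted p under 0.05, 15 below (0.0799%) and 20 above (0.107%) the additive level, and 847 (4.51%) had an unadjusted p under 0.05. With 1 probe set per gene these were 29 of 11982 genes (0.242%), of which 12 lay below (0.1%) and 17 above (0.142%). At this share, 0 calls in a gene list below is no result about its members. On the linear signal scale, where additivity means that the single changes in signal add, 8 probe sets were called below and 3 above. All 35 kept their sign on that scale, and 6 of them were called. Without the replicate block 1 probe set was called, that of Esp, and 160 had an unadjusted p under 0.05. Leaving out single arrays changed the count by over 1.5 times for control replicate 2 (14 calls), PTIP replicates 2 and 3 (14 and 20), Pc/ph replicates 1, 2 and 3 (80, 17 and 21) and combined replicates 2 and 3 (16 and 9). Without all arrays of replicate 1 there were 261 calls, among them all 35, and without those of replicate 2 or 3 limma made 0 (517 and 496 at an unadjusted p under 0.05).

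PTIP dsRNA changed 1224 probe sets (6.52%) in control cells and 1033 (5.5%) in Pc/ph cells, and these contrasts share no array. Of the 414 genes that rose in control cells (3.46%), 239 also rose in Pc/ph cells, which is 57.7% of the first list and 52.4% of the 456 that rose in Pc/ph cells (3.81%). Of the 561 that fell in control cells (4.68%), 243 also fell in Pc/ph cells, which is 43.3% of that list and 62.0% of the 392 that fell in Pc/ph cells (3.27%). Genes that rose in control cells, by a median of 0.48, had a median change of 0.42 in Pc/ph cells, where 98.8% of them were positive against 54.0% of all genes. Those that fell, with a median of -0.72 in control cells, had a median of -0.48 there, with 93.8% negative against 46.0% of all genes. Without the block the counts of probe sets were 51 and 56, and they ranged from 7 to 2566 and from 48 to 2925 when arrays or replicate numbers were left out.

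The called genes fall into patterns by which group mean lies farthest from the mean of the other 3, a sorting made after their values were seen. For 19 of the 29 genes the group that stood apart was Pc/ph, for 9 it was the control, for 1 it was the combined group and for 0 it was PTIP. Over all 11982 genes these shares were 29.5, 26.5, 16.8 and 27.2%, against 65.5, 31.0, 3.45 and 0% of the called genes. In 16 of the 19 genes the 3 Pc/ph arrays lay beyond all other 9, and in 7 of the 9 genes the 3 control arrays did. Over all genes these counts were 217 of 3539 and 196 of 3180. The called genes were chosen by their interaction on the same arrays, so this separation adds no support.

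**Figure D2:**
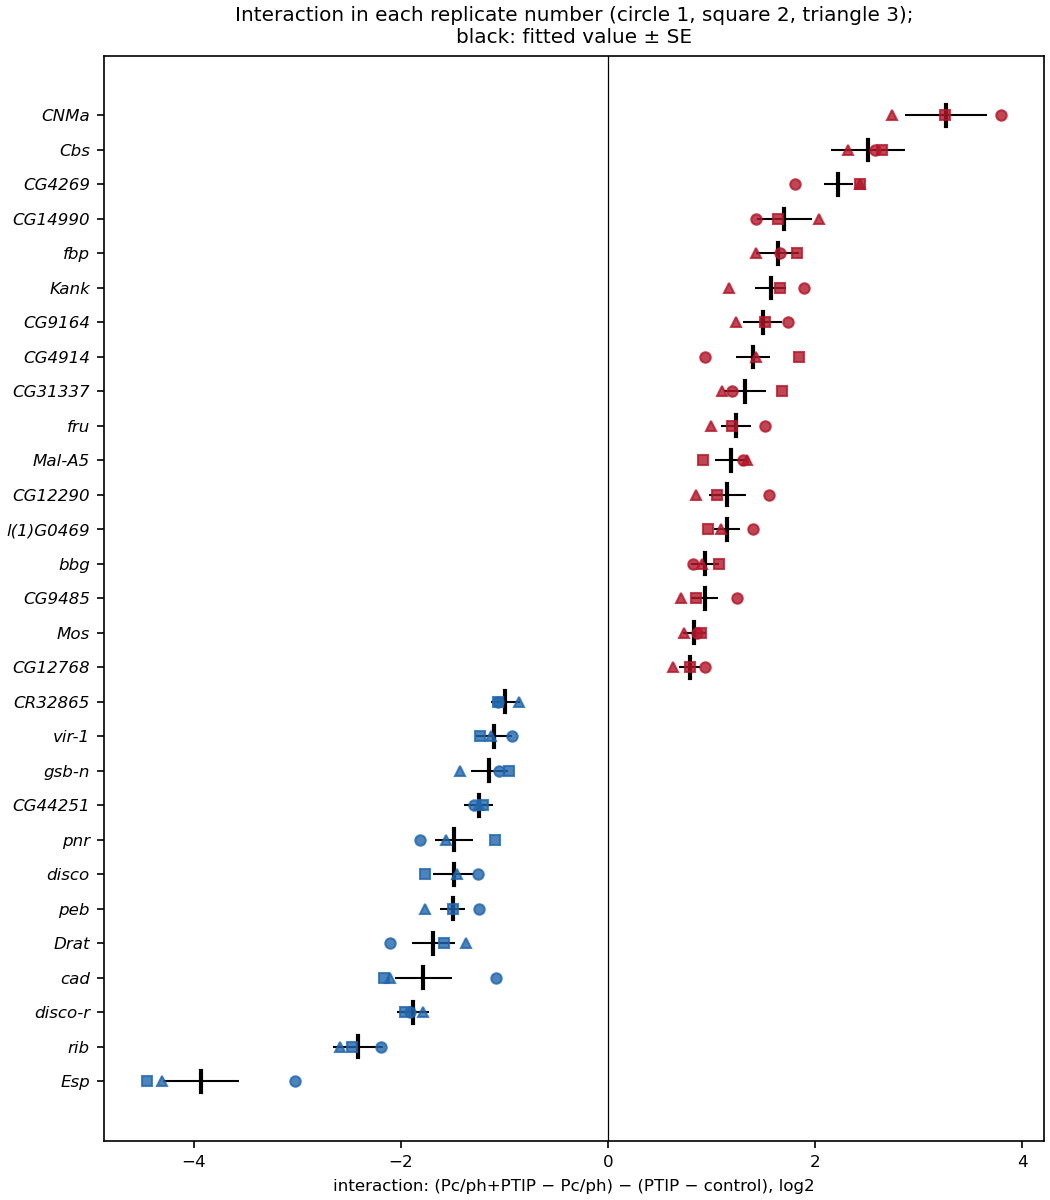
Interaction on the log2 scale (x axis) of the 29 called genes (y axis), with 1 symbol per replicate number and the fitted value ± SE in black. The 3 replicates share a sign for every gene shown, from Esp at -3.93 to CNMa at 3.26. The genes were chosen by this interaction on the same arrays, so the shared sign adds no support.

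With 1 array left out at a time, CG4269, CG44251, Esp, Kank, disco-r, peb and rib were called in all 12 fits. CNMa was lost without Pc/ph replicate 2, and pnr without PTIP replicate 2 or combined replicate 3. CG4914 and fru were lost without control replicate 2, PTIP replicate 2 or combined replicate 3, and Drat without Pc/ph replicate 2 or combined replicate 2 or 3. Calls were kept in 8 of the 12 fits for Mal-A5, 7 for fbp and CG9164, 6 for disco, 5 for CR32865, 4 for Cbs and CG31337, 3 for CG12290 and gsb-n and 2 for cad, CG14990 and vir-1. All of these kept their sign. The called genes bbg, Mos, l(1)G0469, CG9485 and CG12768 were not followed gene by gene in these fits.

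For 11 of the 12 genes below the additive level, Pc/ph cells stood apart on the high side, and levels were lower again when PTIP dsRNA was added. Esp, a sulfate transporter family gene, read 5.94, 5.98 and 6.02 in control cells, 6.47, 7.101 and 7.09 in PTIP cells, 11.6, 11.3 and 11.3 in Pc/ph cells and 9.10, 8.02 and 8.10 in combined cells. The 4 groups did not overlap. Esp was 1.88-fold above control in PTIP cells, 43.5-fold in Pc/ph cells and 5.38-fold in combined cells, which is 15.2-fold below the additive level. Its interaction of -3.93 ± 0.37 (SE, n = 3; limma adjusted p = 0.00299) was -3.02, -4.45 and -4.30 in the 3 replicates.

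The transcription factor gene rib, a BTB-domain regulator of tracheal and salivary gland shape, behaved likewise. Its control arrays read 5.84, 5.42 and 5.34, its PTIP arrays 6.39, 5.76 and 5.44, its Pc/ph arrays 9.92, 10.1 and 10.1 and its combined arrays 8.28, 7.98 and 7.63. Combined cells lay between the other groups without overlap with Pc/ph cells. Against a control near background, the signal was 22.9-fold higher in Pc/ph cells and 5.38-fold higher in combined cells, with an interaction of -2.41 ± 0.24 (limma adjusted p = 0.00462).

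For cad, the homeobox gene of posterior identity, the levels were 5.18, 5.16 and 5.30 in control cells and 5.35, 5.34 and 5.21 in PTIP cells. Pc/ph cells gave 9.76, 10.02 and 10.2 and combined cells 8.84, 8.05 and 8.04. Control and PTIP arrays thus did not rise above Y-linked background, and the combined arrays kept a large part of the rise. The change from control was 27.7-fold in Pc/ph cells and 8.55-fold in combined cells. The interaction was -1.78 ± 0.28 (limma adjusted p = 0.0413), and -2.09 to -1.61 over the fits that leave out 1 array.

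The GATA factor gene pnr, which acts in dorsal closure and thorax patterning, read 5.17, 5.59 and 5.38 in control cells and 5.19, 5.54 and 5.61 in PTIP cells. In Pc/ph cells it read 9.52, 9.22 and 9.39 and in combined cells 7.71, 8.09 and 8.05. It too stayed far above control when all genes were targeted, at 5.95-fold against 15.98-fold in Pc/ph cells. The interaction was -1.49 ± 0.18 (limma adjusted p = 0.0114).

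The neighbouring zinc-finger genes disco and disco-r, with no protein-coding gene between them in the gene table, returned to near their control level in combined cells. In control cells disco-r read 5.18, 5.12 and 5.11, in PTIP cells 5.08, 5.09 and 5.05, in Pc/ph cells 7.46, 7.08 and 6.87 and in combined cells 5.45, 5.09 and 5.02. Combined cells overlapped the control. The fold over control fell from 3.99 in Pc/ph cells to 1.03, and the interaction was -1.88 ± 0.15 (limma adjusted p = 0.00136). A further probe set of disco-r showed no such rise, with means of 5.24 to 5.35 in the 4 groups and an interaction of -0.08. For disco the control arrays read 4.80, 4.89 and 4.79, the PTIP arrays 4.80, 4.82 and 4.57, the Pc/ph arrays 6.82, 6.66 and 6.60 and the combined arrays 5.57, 4.82 and 4.92. Its interaction was -1.49 ± 0.19 (limma adjusted p = 0.0156). In both genes the highest combined array was replicate 1. Pc read lowest in replicate 1 in all 4 groups. For pnr the combined array of replicate 1 was the lowest, and any tie of these levels to Pc was not tested.

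The zinc-finger gene peb, a regulator of epithelial morphogenesis, read 5.36, 5.14 and 5.21 in control cells, 5.17, 5.10 and 5.32 in PTIP cells, 7.20, 6.96 and 7.09 in Pc/ph cells and 5.76, 5.43 and 5.43 in combined cells. Combined arrays all lay above the control arrays and far below the Pc/ph arrays. The interaction was -1.50 ± 0.12 (limma adjusted p = 0.00136). The paired-homeobox gene gsb-n rose from a control mean of 4.84 to 6.02 in Pc/ph cells and stood at 4.90 in combined cells (interaction -1.14 ± 0.18, limma adjusted p = 0.0442). Its neighbour gsb did not share this, with group means of 5.08 to 5.19 and an interaction of 0.09 ± 0.12.

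Control and PTIP levels of rib, cad, pnr, disco, disco-r, peb, gsb-n and CNMa lie in or near the Y-linked range, where the arrays do not resolve differences between low levels. Folds over control of these genes are ratios of signal to that background, not of transcript. A fall after PTIP dsRNA could not be seen in their control cells, which limits every one of these interactions. The control arrays of Esp read 5.94 to 6.02, little above the Y-linked maximum of 5.57, so background may limit its folds too. In bulk RNA, fewer cells that express a gene and less RNA per cell cannot be told apart.

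CG44251 rose 2.58-fold in Pc/ph cells and stood 1.14-fold above control in combined cells (interaction -1.25 ± 0.14, limma adjusted p = 0.00822), and a further probe set of the gene gave -0.63. The virus-induced gene vir-1 had group means of 7.90 in control, 7.78 in PTIP, 9.63 in Pc/ph and 8.42 in combined cells (interaction -1.10 ± 0.17, limma adjusted p = 0.0473). A long noncoding RNA of the alphagamma element, CR32865, had means of 9.83, 10.2, 11.2 and 10.6 in these groups (interaction -0.99 ± 0.14, limma adjusted p = 0.0231), on a probe set of a type that may share probes with other transcripts.

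**Figure D3:**
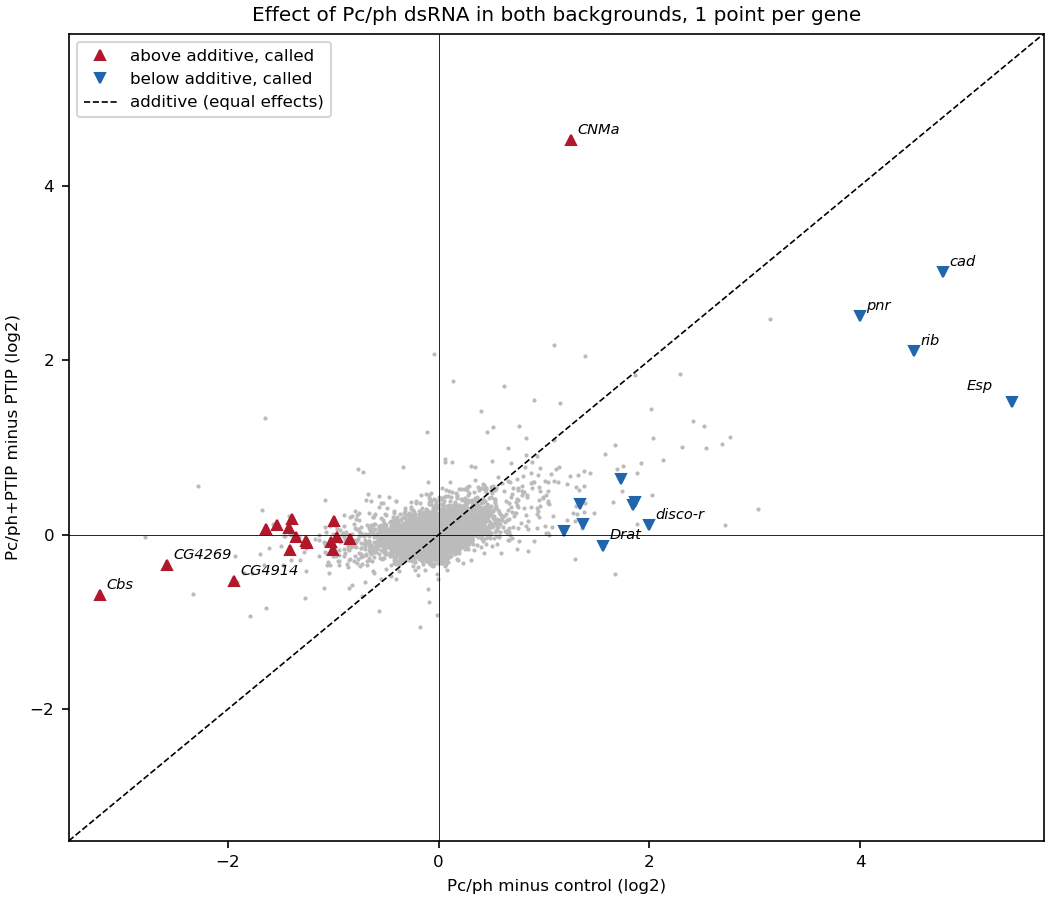
Difference between Pc/ph and control cells (x axis, log2) and between combined and PTIP cells (y axis, log2), 1 point per gene, with called interactions as triangles and the line of equal effects dashed. Esp, rib, cad and pnr lie far below the line but above 0 on both axes, Cbs and CG4269 lie above it on the left, and CNMa lies above it at 1.26 and 4.53.

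The same interaction can be read as the Pc/ph effect with and without PTIP dsRNA, and the 2 contrasts share no array. Between Pc/ph and control cells limma called 287 probe sets (1.53%), and between combined and PTIP cells it called 6 (0.032%), with 778 (4.15%) at an unadjusted p under 0.05. The difference between these effects is the interaction, which was called for 35. Of the 6, 5 rose, and they were the probe sets of cad by 3.01 ± 0.20, pnr by 2.51 ± 0.13, rib by 2.10 ± 0.17, CNMa by 4.53 ± 0.28 and 1 annotated to several genes. CG2233 fell by 1.05 on this scale. The 5 that rose are 0.0266% and the 1 that fell 0.00533% of the probe sets.

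Of the 110 genes that rose in Pc/ph cells (0.918% of 11982), 100 (90.9%) had a positive difference between combined and PTIP cells, against 49.1% of all genes. Their median there was 0.34, and 1.04 in the contrast that chose them. Of the 130 genes that fell in Pc/ph cells (1.08%), 102 (78.5%) had a negative difference in combined against PTIP cells, with a median of -0.11, and 50.9% of all genes did. Among the 110 genes, the difference between combined and PTIP cells was largest in replicate 1 for 80, in replicate 2 for 11 and in replicate 3 for 19. Its medians were 0.53, 0.19 and 0.31, while those between Pc/ph and control cells were 1.08, 0.97 and 1.10. The Pc level of the combined array was 45.5% of control in replicate 1, and 65.9 and 70.9% in replicates 2 and 3. That of the PTIP array was 63.3, 124.2 and 111.4%. Against PTIP cells, the contrast used here, the loss of Pc was thus smallest in replicate 1. Replicate 1 is also the set of arrays with lower quartiles, and the part of Pc or of the quartiles in these values was not tested.

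Developmental regulators under Polycomb control, a list of 89 genes of which 83 were measured, held 6 genes called below the additive level, where 12 of all genes were (0.1%), and 0 above. These are rib, disco-r, cad, peb, disco and pnr. Their list had a median interaction of -0.08, against -0.00 over all genes. The list was chosen with earlier results of these data known, so its counts and this median are no test of such genes. Of the list, 16 rose and 0 fell between Pc/ph and control cells, and 3 of these 16 (cad, pnr and rib) rose between combined and PTIP cells, where 4 of all genes did (0.0334%).

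Further regulators with higher levels in Pc/ph cells had negative interactions that did not pass the test, and were named after their values were seen. The Pc/ph and control arrays that show such a rise also enter the interaction, so these values add no support. Of the 83 measured regulators, 58 lay below 0 and 25 above, up to 0.71. Optix, a Six-family gene of eye development, had group means of 5.56 in control, 5.76 in PTIP, 8.28 in Pc/ph and 5.88 in combined cells, and an interaction of -2.60 ± 0.62 (limma adjusted p = 0.327). The head gene oc (-1.65 ± 0.46), the homeotic regulator tsh (-1.30 ± 0.36) and the Iroquois gene mirr (-1.27 ± 0.38) were not called either (limma adjusted p = 0.502, 0.493 and 0.613). In bab2, a BTB gene of limb patterning, the combined level of 9.90 was close to the Pc/ph level of 9.82, and the interaction was -0.58 ± 0.48.

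For nub, a POU-homeobox gene, 1 of 3 probe sets was called (-1.78 ± 0.27, limma adjusted p = 0.0325), with 4.06, 4.62 and 4.61 in control and 6.66, 6.09 and 6.28 in Pc/ph cells, while its other probe sets gave -0.04 and -0.08 at mean levels of 5.07 and 4.91. This gene and eIF4B, described below, are named for their probe sets after the values were seen, since the probe set that stands for each gene was not called.

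Of the 4 Hox genes measured 0 were called (0.242% of all genes were). Dfd, a Hox gene of maxillary identity, had group means of 6.34 in control, 6.73 in PTIP, 7.78 in Pc/ph and 7.43 in combined cells, and an interaction of -0.73 ± 0.13 (limma adjusted p = 0.102). Antp gave -0.41 ± 0.41, and pb and Scr gave 0.05 and 0.11. None of these 4 values passed the test.

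Subunit genes of the Polycomb complexes other than the targets held 0 called genes among 15 (0.242% of all genes were called), with a median of 0.08. Psc, a subunit of repressive complex 1, had means of 8.18 in control, 7.998 in PTIP, 10.1 in Pc/ph and 8.82 in combined cells, an order like that of the released regulators (interaction -1.10 ± 0.26, limma adjusted p = 0.285). The 14 genes of COMPASS-type complexes and trithorax, which include the partners of PTIP, had 0 calls, a median of 0.11 and a range of -0.09 to 0.47.

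CNMa, which encodes a neuropeptide, was the one called gene that stood apart in the combined group. It read 5.71, 5.74 and 5.48 in control cells, 5.61, 5.52 and 5.65 in PTIP cells, 7.45, 6.45 and 6.80 in Pc/ph cells and 11.2, 9.49 and 9.72 in combined cells. Control and PTIP arrays overlapped, Pc/ph arrays lay above them and combined arrays lay above all others. The signal was 22.3-fold above the near-background control in combined cells and 9.30-fold above that of Pc/ph cells. The interaction was 3.26 ± 0.40 (limma adjusted p = 0.0114), with 3.80, 3.25 and 2.75 in the 3 replicates.

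Among 38 measured genes of neuropeptides and their receptors, CNMa was the 1 called (0.142% of all genes were called above). The list median was -0.01, and the list was chosen with earlier results of these data known. The receptor gene Dh44-R2 fell in both single knockdowns, from a mean of 7.95 to 6.12 in PTIP and 6.27 in Pc/ph cells, and read 6.40 in combined cells. Its interaction of 1.96 ± 0.42 was not called (limma adjusted p = 0.221).

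For 8 of the genes above the additive level, Pc/ph cells stood apart on the low side, and several of these were close to the control again in combined cells. Cbs, which encodes the transsulfuration enzyme cystathionine beta-synthase, read 12.9, 11.99 and 11.8 in control cells, 12.3, 12.2 and 12.4 in PTIP cells, 9.38, 8.88 and 8.78 in Pc/ph cells and 11.3, 11.7 and 11.8 in combined cells. The Pc/ph arrays were far below all others. Cbs was 9.25-fold below control in Pc/ph cells, and combined cells were 5.96-fold above these. The interaction was 2.51 ± 0.36 (limma adjusted p = 0.0257).

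Kank, which encodes an ankyrin-repeat protein of the cell cortex, read 9.94, 10.3 and 10.1 in control cells, 9.32, 9.91 and 10.07 in PTIP cells, 8.49, 8.74 and 8.97 in Pc/ph cells and 9.77, 10.02 and 10.05 in combined cells. Combined and control arrays overlapped. The interaction was 1.57 ± 0.15 (limma adjusted p = 0.00299). The other 3 probe sets of Kank, with mean levels of 4.83 to 5.54, gave 0.17, -0.03 and -0.08, and the median of all its probe sets gave -0.06.

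The BTB zinc-finger gene fru, known for male courtship, had group means of 9.58 in control, 9.62 in PTIP, 8.17 in Pc/ph and 9.45 in combined cells (interaction 1.24 ± 0.15, limma adjusted p = 0.0108). Of its other 6 probe sets 1 was called, at 1.17 ± 0.14, and 5 were not, at 1.97, 0.64, 0.42, 0.31 and -0.08. The median over its probe sets was not called (1.27, limma adjusted p = 0.609). The maltase gene Mal-A5 had means of 7.89, 7.40, 6.63 and 7.33 in the same order of groups (interaction 1.19 ± 0.15, limma adjusted p = 0.0145), and its neighbours Mal-A4 and Mal-A6 gave -0.08 and -0.07. The PDZ-domain gene bbg had means of 8.04, 8.13, 7.08 and 8.10 (interaction 0.94 ± 0.14, limma adjusted p = 0.0312), and a dimmer probe set of the gene gave 0.02.

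CG4914 rose in PTIP cells and fell in Pc/ph cells. It read 8.27, 9.53 and 9.53 in control, 9.81, 10.6 and 10.7 in PTIP, 6.46, 7.32 and 7.72 in Pc/ph and 8.94, 10.3 and 10.3 in combined cells. The effect of PTIP dsRNA was thus 1.27 ± 0.12 in control and 2.67 ± 0.12 in Pc/ph cells, an interaction of 1.40 ± 0.17 (limma adjusted p = 0.0108). CG31337 and CG12290 had interactions of 1.33 and 1.15, with Pc/ph means of 8.05 and 7.98 below the other groups.

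**Figure D4:**
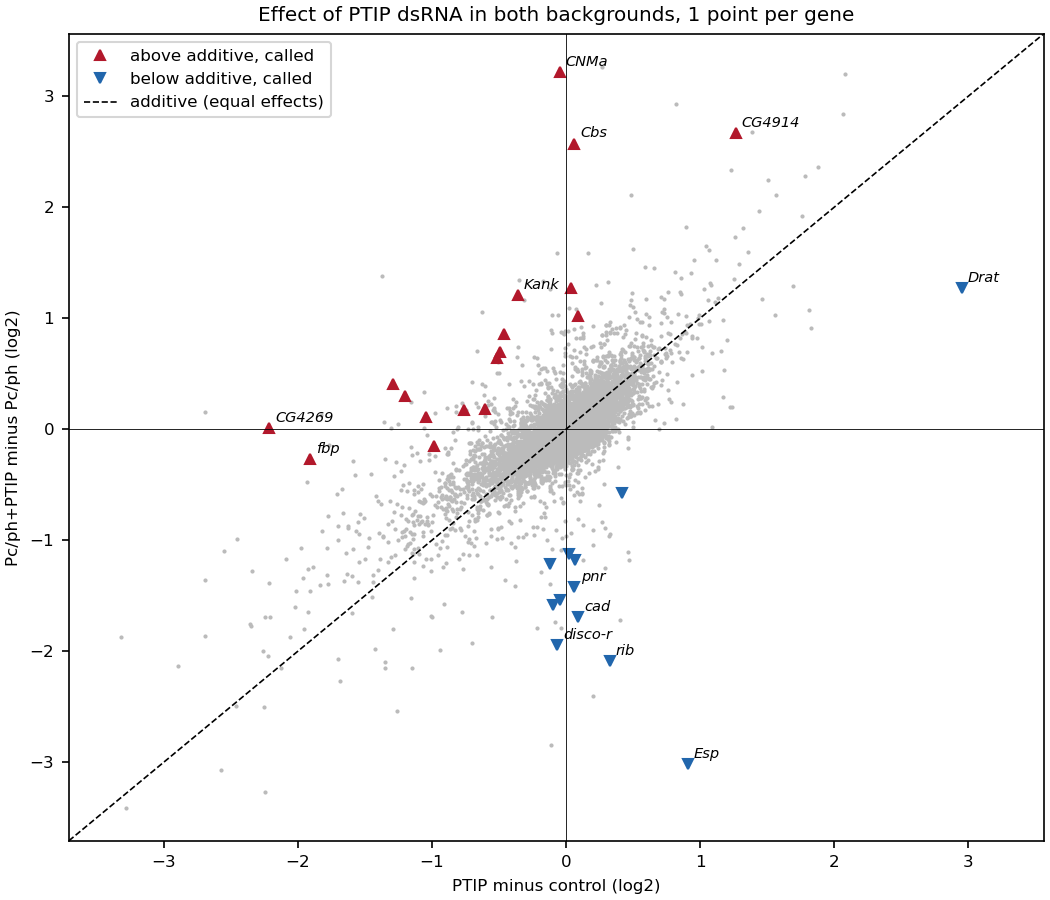
Difference between PTIP and control cells (x axis, log2) and between combined and Pc/ph cells (y axis, log2), 1 point per gene, with called interactions as triangles and the line of equal effects dashed. Esp, rib, disco-r, cad and pnr lie at -0.06 to 0.91 on the x axis and at -1.42 to -3.02 on the y axis, while CG4269 and fbp lie left of the line and Drat right of it.

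The remaining pattern is a control group that stood apart from all 3 knockdown groups. The labels name dsRNA for the knockdown groups only. Treatment with any dsRNA and loss of the targeted genes thus cannot be told apart for these 9 genes, nor in other contrasts with the control. CG4269 read 7.84, 9.57 and 9.31 in control cells, 5.80, 7.29 and 6.99 in PTIP cells, 5.56, 6.74 and 6.69 in Pc/ph cells and 5.33, 6.90 and 6.80 in combined cells. Within each replicate number the control was far above the others. Its level was 0.215 of control in PTIP, 0.168 in Pc/ph and 0.169 in combined cells, and the interaction was 2.23 ± 0.14 (limma adjusted p = 4.06e-04).

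The gluconeogenesis gene fbp, which encodes fructose-1,6-bisphosphatase, read 9.93, 11.3 and 11.1 in control cells, 8.32, 9.11 and 9.18 in PTIP cells, 8.62, 9.43 and 9.70 in Pc/ph cells and 8.67, 9.08 and 9.18 in combined cells. The 3 knockdown groups overlapped and all lay below the control arrays. Its interaction was 1.64 ± 0.21 (limma adjusted p = 0.0143). Mos, a kinase gene of oocyte meiosis, had means of 8.36 in control and 7.20 to 7.37 in the other groups (interaction 0.83 ± 0.11, limma adjusted p = 0.0158). CG14990 (1.70), CG9164 (1.50), l(1)G0469 (1.15), CG9485 (0.94) and CG12768 (0.79) were called with the control mean highest.

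Drat, a dehydrogenase-like gene of cell death control, was the reverse case. It read 8.57, 10.1 and 10.1 in control cells, 12.05, 12.8 and 12.8 in PTIP cells, 10.5, 11.6 and 11.4 in Pc/ph cells and 11.9, 12.7 and 12.7 in combined cells. Every knockdown array lay above the control arrays, and combined arrays overlapped the PTIP arrays. PTIP dsRNA raised Drat by 2.95 ± 0.14 in control and by 1.27 ± 0.14 in Pc/ph cells, and the interaction was -1.68 ± 0.20 (limma adjusted p = 0.0114).

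Of 4 probe sets of the translation initiation factor gene eIF4B, 1 was called (1.55 ± 0.18, limma adjusted p = 0.0108), with a control mean of 10.85 and means of 9.35 to 9.60 in the other groups. Its others gave 1.42, 1.99 and 0.28, the last at a mean level of 5.26, and the brightest missed the threshold (limma adjusted p = 0.0679).

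Genes of glycogen, trehalose and sugar handling, 23 measured of 27 listed, held 2 genes called above the additive level, fbp and Mal-A5, where 17 of all genes were (0.142%), and 0 below. The list median was 0.10. Of its measured members 13 lay above 0 and 10 below, down to -0.16 for the maltase gene Mal-A8. The highest that were not called were the glycogenin gene Gyg at 1.37 ± 0.25 (limma adjusted p = 0.0957) and the trehalase gene Treh at 1.31 ± 0.25 (0.110). Treh had means of 11.5 in control, 9.92 in PTIP, 10.2 in Pc/ph and 9.90 in combined cells. By contrast Gyg was lowest in Pc/ph cells, with 9.69, 9.02, 8.19 and 8.89.

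Amino acid catabolism and one-carbon genes held 1 call among 29, Cbs (0.142% of all genes were called above), with a median of 0.05. Genes of cell death and stress held 1 among 31, Drat (0.1% of all genes were called below), and their median was 0.07. Both lists, like that of sugar genes, were chosen with earlier results of these data known. The 83 cytochrome P450 genes had 0 calls and a range of -0.74 to 1.45. The 35 UDP-glycosyltransferase genes had 0 and a range of -0.67 to 1.45 (0.242% of all genes were called). Of these detoxification genes 12 and 6 fell after PTIP dsRNA in control cells (4.68% of all genes) and 7 and 6 in Pc/ph cells (3.27% of all genes). In either background 3 P450 genes and 0 UDP-glycosyltransferase genes rose (3.46% of all genes in control and 3.81% in Pc/ph cells). These counts are near the shares of all genes and are no result about the lists. Among the glutathione and redox genes 0 of 44 were called, and the oxidative stress sensor Keap1 came closest (0.75 ± 0.13, limma adjusted p = 0.0589), with a Pc/ph mean of 7.71 against 8.53 to 8.78 elsewhere.

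Hemocyte and matrix genes had 0 calls among 46 (0.242% of all genes were called) and a median of -0.06. The hemocyte surface gene He (-1.28 ± 0.40) and the Nimrod-family gene NimB5 (-1.03 ± 0.27) had higher levels in Pc/ph cells than elsewhere and were not called (limma adjusted p = 0.689 and 0.417). On the other side the collagen IV genes vkg (0.73 ± 0.27) and Col4a1 (0.65 ± 0.26) were lowest in Pc/ph cells and not called. In this list 8 genes fell after PTIP dsRNA in control cells (4.68% of all genes) and 9 in Pc/ph cells (3.27% of all genes). The list held 0 and 1 genes that rose in these backgrounds (3.46 and 3.81% of all genes). Its summed linear signal was 129716 to 168873 in control, 95421 to 142503 in PTIP, 141412 to 171352 in Pc/ph and 109109 to 145116 in combined arrays, and its part in the interactions was not tested. All of the 6 imaginal disc growth factor genes missed the threshold, with Idgf2 at -1.54 ± 0.69. Neuron (11), muscle (10), germline (15), fat body (9) and epithelial (16) markers held 0 calls. The summed linear signal of the epithelial markers was 10986 to 16938 in control, 12366 to 21672 in PTIP, 15747 to 21655 in Pc/ph and 19789 to 22942 in combined arrays, with 0 of 16 genes in the Y-linked range on every array, and its part in the called interactions was not tested. That of the muscle markers ran from 355 to 565 in all 4 groups, and 5 of its 10 genes lay in the Y-linked range on every array.

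**Figure D5:**
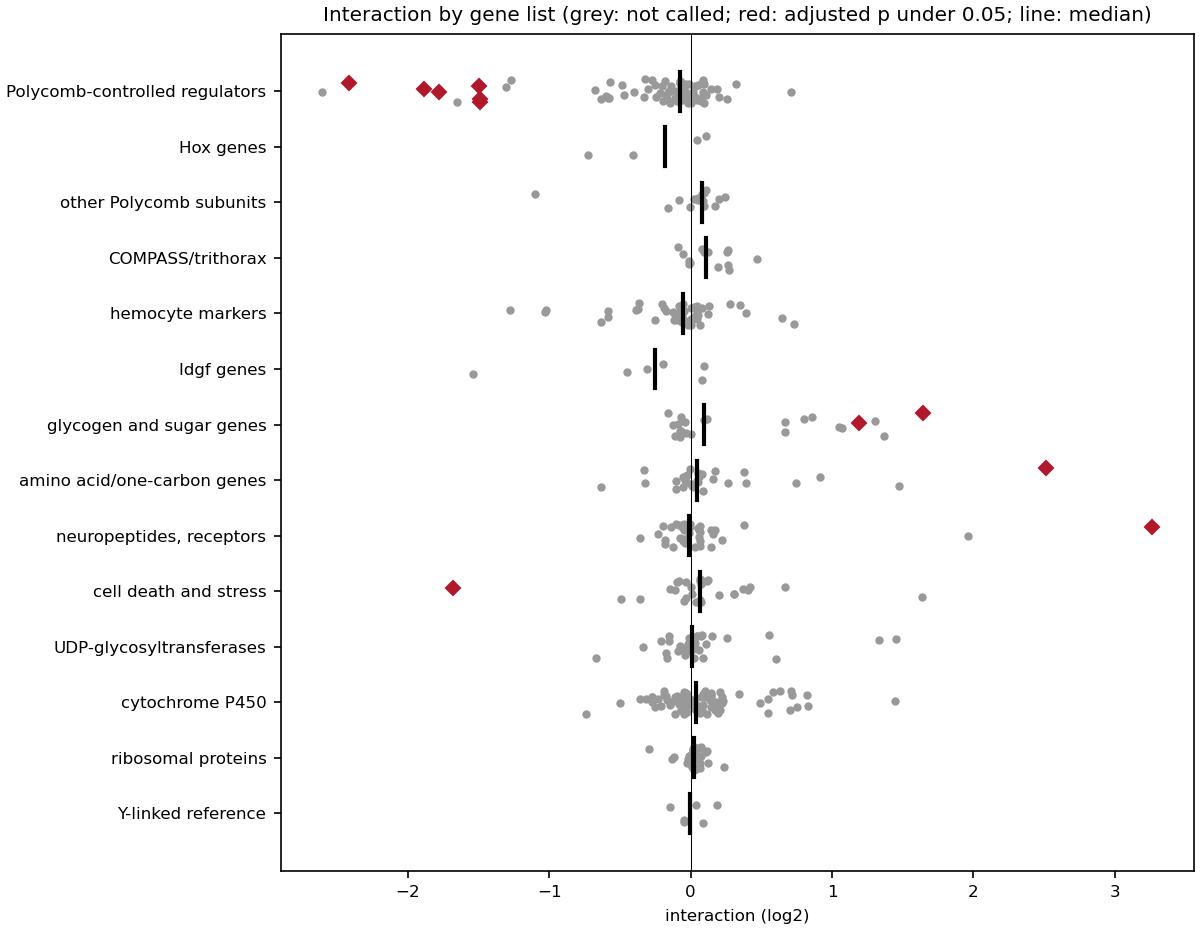
Interaction on the log2 scale (x axis) of the measured members of 14 gene lists (y axis), with called members as red diamonds, others as grey points and the list median as a line. Red points lie left of 0 among Polycomb-controlled regulators and for Drat, and right of 0 for fbp, Mal-A5, Cbs and CNMa.

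Ribosomal protein genes (41), proteasome genes (40) and mitochondrial ribosomal protein genes (69) each had 0 calls, with interactions of -0.30 to 0.23, -0.32 to 0.18 and -0.37 to 0.29. Of all genes 0.242% were called, so 0 calls in these lists and those that follow is no result about their members. For DNA replication and cell cycle genes the range was -0.34 to 0.36 over 33 genes, with 0 calls, while 9 of them rose after PTIP dsRNA in control cells (3.46% of all genes) and 5 in Pc/ph cells (3.81% of all genes). The 13 RNA interference genes ranged from -0.13 to 0.16. Notch pathway genes (19), EGF receptor and Ras genes (17), JAK/STAT genes (10), ecdysone response genes (21), humoral immunity genes (30), DNA damage and repair genes (23) and Brahma complex genes (9) also had 0 calls. In the Notch list the glycosyltransferase gene fng had means of 6.27 in control, 7.65 in PTIP, 6.16 in Pc/ph and 8.84 in combined cells (interaction 1.29 ± 0.40, limma adjusted p = 0.646).

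By position, the nearest measured neighbours of the called genes were not called, apart from disco and disco-r, which adjoin each other. Of all genes 0.242% were called, so uncalled neighbours are no result about position. CG42663, beside Mos, was higher in Pc/ph cells than in control by 1.14 (limma adjusted p = 0.0109), with an interaction of -0.36. GATAe, beside pnr, read 5.21 to 5.33 in group means and had an interaction of -0.11, and the neighbours dia and Pomp of cad gave -0.12 and -0.01. Cpr62Bc and CG12024, on either side of CNMa, gave 0.10 and 0.13, and Mgstl and Stt3A beside Cbs gave 0.48 and -0.10.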

How the data were processed

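The deposited values are log2 RMA signals, 1 per probe set and array, used as deposited. Per the submitters' processing notes they were made with RMA and limma, and the sources used here give no versions, normalization batches or genome build. Of 18952 probe sets, 183 controls were set aside. The platform annotation gives 13647 of the other 18769 a single symbol, 402 several and 4720 none. By gene number 13544 matched the RefSeq gene table, which also gave neighbours, and 103 did not, and 0 symbols changed. For counts of genes the probe set with the highest mean over the 12 arrays was kept (11982 genes).

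The 4 group means and the replicate number were fitted to all 12 arrays in limma 3.58.1 under R 4.3.3, which left 6 residual degrees of freedom. Variances were moderated with a constant prior, and p-values were adjusted over 18769 probe sets by the Benjamini-Hochberg method. A call is an adjusted p under 0.05. Tests are two-sided, errors are SE of the fit and n is 3 arrays per group. The fit was tested on simulated data. After removal of group means, same-numbered arrays of different groups correlated at 0.489 to 0.880 (18 pairs), and number 2 against number 3 at 0.396 to 0.784, so the numbers mark at least the replicate 1 arrays. The number of arrays limits precision.

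Named genes are the 12 most positive and 12 most negative called interactions of 1 sign in all 3 replicates, the targets, the Hox genes and up to 2 called members per list and direction. Others are named as neighbours, for contrast or as exceptions, after their values were seen. The members and lists were chosen with earlier results of these data known. Alternatives were the fit without the block, other normalizations, variance priors, a filter on dim probe sets, the linear scale, the median over probe sets, and fits without single arrays or replicate numbers. No promoter or protein sequence was used here.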

Additional observations from a re-analysis of the deposited data

Results flagged for a closer look

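The effect of PTIP dsRNA differed between Pc/ph and control cells, by the interaction test in limma, for 24 of the genes named. Above the additive level these were CNMa (3.26), Cbs (2.51), CG4269 (2.23), CG14990 (1.70), fbp (1.64), Kank (1.57), CG9164 (1.50), CG4914 (1.40), CG31337 (1.33), fru (1.24), Mal-A5 (1.19) and CG12290 (1.15). Below it were Esp (-3.93), rib (-2.41), disco-r (-1.88), cad (-1.78), Drat (-1.68), peb (-1.50), disco (-1.49), pnr (-1.49), CG44251 (-1.25), gsb-n (-1.14), vir-1 (-1.10) and the noncoding RNA CR32865 (-0.99), all on the log2 scale.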

How the results depend on the processing

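The 24 calls listed above were followed gene by gene, and those of bbg, Mos, l(1)G0469, CG9485 and CG12768 were not. All 24 listed calls kept their sign in every fit run on their probe set, and Kank turned to -0.058 with the median of its probe sets. Of these calls 7 were kept without any single array. All 24 were kept without replicate 1 and 0 without replicate 2 or 3. Kept were 23 with a variance trend, 21 with a robust prior, 19 after cyclic loess, 11 after quantile normalization, 5 on the linear scale, 22 with the median over probe sets, 20 of 20 tested among brighter probe sets and 1 without the replicate block. Without the block the counts of probe sets were 1 for the interaction (0 positive, 1 negative), 51 and 56 for PTIP in control and Pc/ph cells and 37 for Pc/ph in control cells, and the Pc difference of 1.59 between combined and Pc/ph cells was not called. On the linear scale they were 11 (3 positive, 8 negative), 623, 503 and 131, with 0 for Pc/ph in PTIP cells, and the Pc difference, 259 signal units, was not called. A variance trend gave 10 for Pc/ph in PTIP cells. The Pc interaction was called after quantile normalization (1.56), cyclic loess (1.63), with a variance trend (1.65), without replicate 1 (1.61) and without Pc/ph replicate 1 (1.88). The cause of these changes was not tested. Leaving out arrays or replicate numbers gave 0 to 261 interaction calls (0 to 145 positive, 0 to 116 negative), 7 to 2566 and 48 to 2925 for PTIP in control and Pc/ph cells, 43 to 1066 and 2 to 67 for Pc/ph in control and PTIP cells, with the extremes at the replicate numbers, a Pc interaction of 1.39 to 1.88 and a Pc difference of 1.43 to 1.85 by replicate number (not called without replicate 2 or 3) and 1.42 to 1.82 by array. In such fits pb ran from -0.066 to 0.135, with -0.03 in a further fit, and Ptip from -0.015 to 0.478, neither called. Signals near background limit the sizes of the released genes.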
